A study of Arabidopsis thaliana with 4 samples.

Results

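The late anthocyanin pathway comprises the steps that follow dihydroflavonol, and 7 probe sets from it, of the 22746 measured (controls left out), are described here. They were listed by name and identifier and chosen by the log2 fold change of an3-4 over wild type on these arrays: every probe set matching DFR, UF3GT, AT4G14090 and AT5MAT, the acyltransferase probe set 265091_s_at, and the probe sets 254283_s_at and 250083_at. Because the choice used this contrast, the differences given for its members between these genotypes are descriptions, and no test is given for them. The annotation used names 1 gene for 4 of the probe sets and lists AT1G03495 and AT1G03940 together for 265091_s_at. It lists no gene for 254283_s_at and 250083_at, which the member list gives as LDOX and TT19. That assignment was not checked, and both are called by their identifiers.

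Total RNA came from the first leaf primordia of Arabidopsis seedlings at 7 days after sowing, from 2 samples of an3-4 mutants and 2 of wild type, each on its own Affymetrix array. Both genotypes are given as ecotype Col-0 and grew at 22 °C in continuous light. ANGUSTIFOLIA3 (AN3), a coactivator of transcription, keeps cells of the young leaf dividing, and its loss gives narrow leaves. The labels describe neither the lesion in an3-4 nor whether the replicates came from separate cultures, so the spread between arrays of a genotype may be technical, and the level of AN3 itself was not analysed here.

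Anthocyanins are red to purple pigments that young Arabidopsis tissue stores in the vacuole. Early flavonoid enzymes supply dihydroflavonols, which either become flavonols or enter the anthocyanin branch. There dihydroflavonol reductase and leucoanthocyanidin dioxygenase form the coloured anthocyanidin, sugars and acyl groups are added, and a glutathione transferase is needed for the pigment to accumulate. In Arabidopsis the late genes are known targets of complexes of MYB, bHLH and WD40 proteins, while the early and flavonol genes are largely under other MYB proteins.

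DFR, 254283_s_at, UF3GT, AT4G14090, AT5MAT, 265091_s_at and 250083_at were all lower in an3-4 than in wild type. The signals of the genotypes did not overlap for any of the 7. Mean an3-4 signals ranged from 20.2% of the wild-type mean for 265091_s_at to 45.4% for AT5MAT, with all arrays brought to 1 trimmed mean (the mean with 2% of values removed from each end). The median log2 fold change of an3-4 over wild type over the members was -1.76, against 0.02 over all probe sets. For comparison, both an3-4 signals lay below both wild-type signals for 13.9% of all probe sets as deposited and for 20.8% at 1 trimmed mean. In bulk tissue, fewer cells of a type that holds these transcripts and less transcript per cell cannot be told apart.

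DFR (249215_at, locus AT5G42800) encodes dihydroflavonol reductase, which commits dihydroflavonols to the anthocyanin branch. Its MAS5 signals, linear intensities that can be set between arrays but not between probe sets, were 188 and 231 on the an3-4 arrays, against 924 and 938 on the wild-type arrays. The mutant arrays lay far below both wild-type arrays, with the lowest wild-type signal 4.00 times the highest an3-4 signal. The log2 fold change was -2.16 ± 0.21 (limma estimate ± SE, n = 2 arrays each), or 4.47-fold lower in an3-4. Only 9 of the 13647 probe sets whose mean log2 signal exceeds the 40th percentile had a lower log2 fold change than DFR. Over all 22746 probe sets, dim ones included, DFR ranked 213th lowest.

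The next enzyme of the branch, leucoanthocyanidin dioxygenase (LDOX), is the one given for 254283_s_at. This probe set had signals of 272 and 372 in an3-4, against 1038 and 1119 in wild type. As deposited, the an3-4 arrays differed more from each other (SD 70.8) than the wild-type arrays did (SD 57.1), and both stayed well under them. At 1 trimmed mean the SDs were 32.4 in an3-4 and 71.9 in wild type. On the log2 scale the replicates then differed by 0.21 in an3-4 and -0.14 in wild type. The log2 fold change was -1.76 ± 0.21.

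UF3GT (248185_at, AT5G54060) encodes a UDP-sugar transferase that attaches xylose to the sugar of an anthocyanin. Signals were 124 and 118 in an3-4, against 384 and 421 in wild type, a log2 fold change of -1.73 ± 0.22. As deposited, UF3GT was the only member whose signal was lower on the second an3-4 array than on the first.

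AT4G14090 (245624_at), which encodes the transferase that adds a further glucose to anthocyanins, had signals of 137 and 171 in an3-4, against 365 and 423 in wild type. Its log2 fold change was -1.36 ± 0.22, so the 2 glycosyltransferase genes were 3.32-fold and 2.56-fold lower in an3-4. At 1 trimmed mean the replicates of AT4G14090 were nearly equal, at 150 and 158 in an3-4 and 397 and 389 in wild type.

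The acyltransferase probe sets lay at opposite ends of the members' range. AT5MAT (256924_at, AT3G29590), which encodes the malonyltransferase that acts on the anthocyanin glucose, had signals of 69.7 and 83.1 in an3-4, against 145 and 194 in wild type. This was the smallest difference among the 7, with a log2 fold change of -1.14 ± 0.26, and the only one in which the lowest wild-type signal was less than 2-fold above the highest an3-4 signal as deposited (1.74 times, and 2.06 times at 1 trimmed mean). That spacing of at least 2-fold was met by 6 of the 7 members and by 1.46% of all probe sets.

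The probe set 265091_s_at, shared by the anthocyanin coumaroyltransferase genes AT1G03495 and AT1G03940, had signals of 105 and 147 in an3-4, against 615 and 616 in wild type. Its log2 fold change of -2.31 ± 0.21, 4.95-fold lower in an3-4, was the largest of the members. The probe set does not separate the 2 genes, so the share of each cannot be told apart.

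The glutathione transferase TT19, known to be needed for anthocyanin to reach the vacuole, is the gene given for 250083_at. Signals of 122 and 139 in an3-4 stood against 435 and 470 in wild type, a log2 fold change of -1.80 ± 0.22. The 2 an3-4 values were 133 and 127 at 1 trimmed mean.

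**Figure D1:**
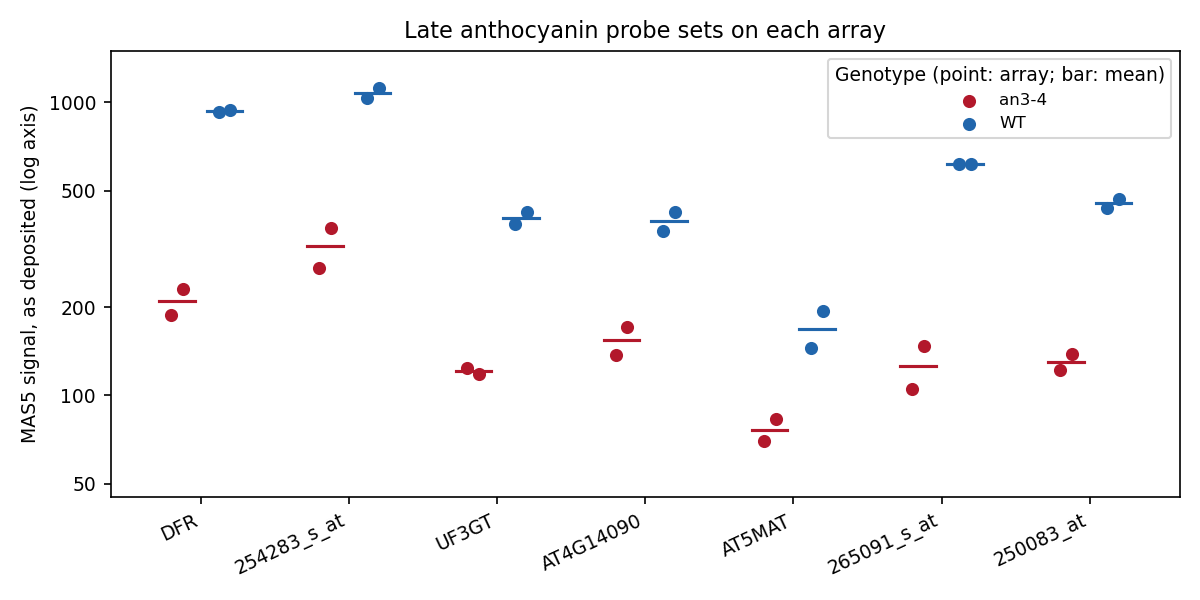
MAS5 signal as deposited (log axis) of the 7 late anthocyanin probe sets on each array, with an3-4 left of wild type (WT), points for arrays and bars for the mean of 2 arrays. Both an3-4 points lie below both wild-type points for all 7, with the widest gaps for DFR and 265091_s_at and the narrowest for AT5MAT.

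Arrays with the same replicate number had been deposited on the same scale. The first an3-4 and the first wild-type array shared a trimmed mean of 143 and the second of each genotype one of 169, an offset of 0.24 on the log2 scale. Bringing all arrays to 1 trimmed mean narrowed the SD of the an3-4 signals for 6 members and widened it for UF3GT (19.0, against 4.50 as deposited). The SD of the wild-type signals narrowed for 3 members and widened for 4, among them DFR (101, against 10.3 as deposited) and 265091_s_at (72.8, against 0.97). At 1 trimmed mean, the second an3-4 array differed from the first by -0.32 (UF3GT) to 0.24 (265091_s_at) on the log2 scale among the members, and the second wild-type array from the first by -0.24 (265091_s_at) to 0.18 (AT5MAT). These differences are small beside the smallest log2 fold change of -1.14. In wild type 1 of the 7 members, AT5MAT, was higher on the second array at this scale, and in an3-4 there were 5.

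The order of the members was partly the same on both an3-4 arrays. Measured from the wild-type mean at 1 trimmed mean, 265091_s_at was lowest on both (log2 differences of -2.43 and -2.18), followed by DFR (-2.19 and -2.13). AT4G14090 (-1.39 and -1.32) and AT5MAT (-1.14 and -1.13) differed least on both. The 3 between them changed places: 254283_s_at had -1.86 and -1.66, 250083_at had -1.77 and -1.83, and UF3GT had -1.57 and -1.89. Ordered by log2 fold change, neighbouring members differed by less than the sum of their SEs as deposited (SEs of 0.21 to 0.26). At 1 trimmed mean the SEs were 0.09 to 0.13, and 3 steps were wider than that sum, those from DFR to 250083_at, from UF3GT to AT4G14090 and from AT4G14090 to AT5MAT.

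**Figure D2:**
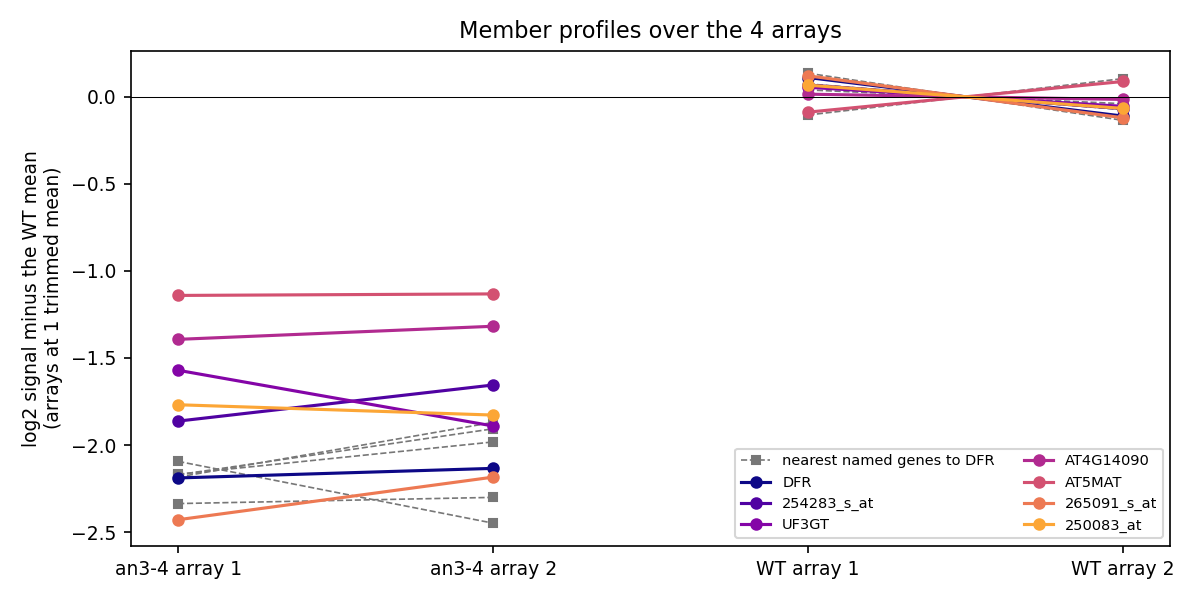
Log2 signal minus the wild-type mean, with all arrays at 1 trimmed mean, on the an3-4 arrays and then the wild-type (WT) arrays. Circles show the 7 members and grey squares the 5 named genes nearest to DFR. The members run from -1.13 to -2.43 on the an3-4 arrays, with 265091_s_at lowest and AT5MAT highest on both, and stay within 0.12 of the wild-type mean on the wild-type arrays.

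Across all probe sets, limma called 276 lower in an3-4 (1.21% of 22746) and 264 higher (1.16%) at a Benjamini-Hochberg adjusted p under 0.05. All 7 members are among the lower ones, a count that follows from the contrast used to list them and from which nothing is read. Nothing is read either from which member calls held in other settings. AT5MAT lost its call with 32 added to every signal (-0.88). Its log2 fold change was -0.93 without wild-type replicate 2 and -1.01 without an3-4 replicate 1. No member had a signal below the 40th percentile of its array, which was 34.1 and 42.4 in an3-4 and 34.8 and 38.2 in wild type, so none of the folds is a bound. Among the 13647 brighter probe sets the members ranked from 5th (265091_s_at) to 94th (AT5MAT) lowest. Over all 22746 the same 2 members ranked 162nd and 975th. With eBayes run without its intensity trend limma called 0 probe sets of either direction (801 lower and 837 higher at an unadjusted p under 0.05). With 2 arrays per genotype the smallest p of an exact permutation test is 0.333, and the limma calls depend on a spread pooled over probe sets.

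**Figure D3:**
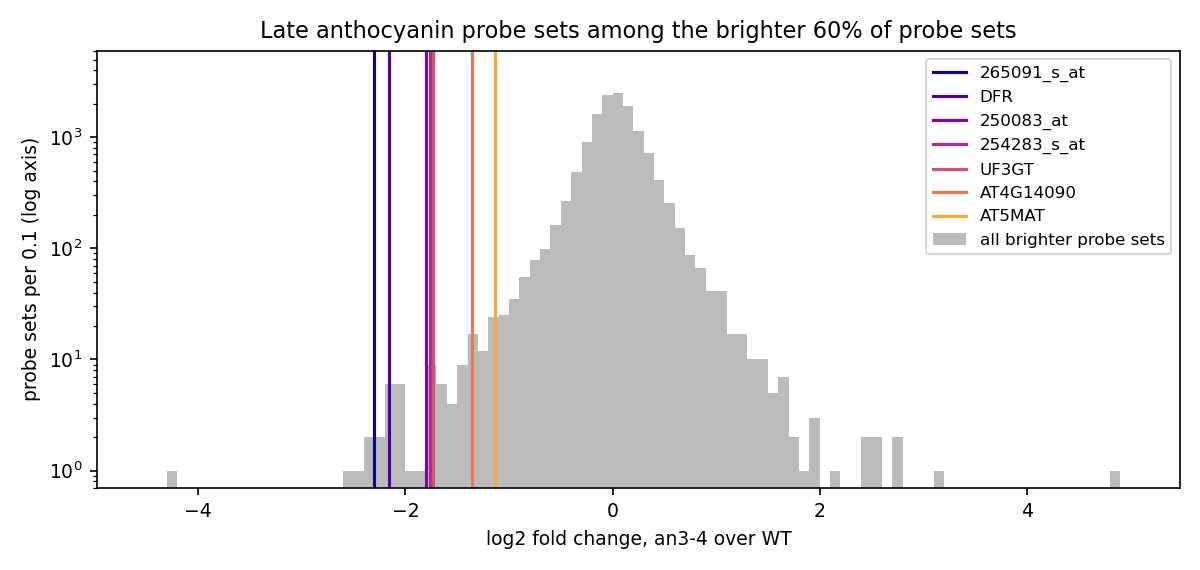
Number of probe sets per 0.1 of log2 fold change, an3-4 over wild type (log axis), for the 13647 probe sets above the 40th percentile of mean log2 signal. Coloured lines mark the 7 members, which lie between -2.31 and -1.14 on the lower tail, while the median of these probe sets is 0.02.

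Other genes of the pathway were taken from lists of 59 loci covering phenylpropanoid entry, early flavonoid steps, flavonols, further decoration and transport, regulators and the seed-coat branch. The annotation named a probe set for 8 of them, and 5 of these were above the 40th percentile on every array. The entry enzymes and the further decoration and transport genes were not analysed here. In limma over all probe sets 2 of the 8 fell, CHIL and UGT78D2, and none rose (0 at an unadjusted p under 0.05), against backgrounds of 1.21% and 1.16%. At 1 trimmed mean 5 fell and none rose, against backgrounds of 2.51% lower and 2.66% higher.

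CHIL (AT5G05270), a chalcone isomerase-like protein that aids the first flavonoid steps, was the only early gene for which the annotation named a probe set. Its signals were 248 and 318 in an3-4, against 561 and 621 in wild type. CHIL thus had a log2 fold change estimated at -1.07 ± 0.21 (limma adjusted p = 5.96e-05). CHIL lost its call without wild-type replicate 2 (-1.00) and without an3-4 replicate 1 (-0.89).

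In the flavonol branch, UGT78D2 (AT5G17050) adds the first glucose to flavonols and to anthocyanidins alike. It had signals of 251 and 286 in an3-4, against 483 and 500 in wild type, which gives an estimated log2 fold change of -0.88 ± 0.21 (adjusted p = 0.00297 in limma). The call of UGT78D2 was lost when any 1 array was left out, with log2 fold changes from -0.97 to -0.78. Both rhamnosyltransferases of flavonols, UGT89C1 (AT1G06000) and UGT78D1 (AT1G30530), were not called as deposited. UGT89C1 had 401 and 457 in an3-4, against 582 and 738 in wild type (log2 fold change -0.61 ± 0.21, limma adjusted p = 0.107). UGT78D1 had 326 and 364 in an3-4, against 435 and 480 in wild type (-0.41 ± 0.21, limma adjusted p = 0.537). With all arrays at 1 trimmed mean both passed in limma (adjusted p = 0.00220 for UGT89C1 and 0.0217 for UGT78D1).

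Of the 14 activators listed, the annotation named 1, HYH, a bZIP protein close to HY5 that acts in light responses. HYH had signals of 139 and 149 in an3-4 and of 223 on both wild-type arrays, which gives -0.63 ± 0.23 as the log2 fold change (adjusted p = 0.161 in limma, and 0.0155 at 1 trimmed mean). The MYB and bHLH activators of anthocyanin genes were not analysed here. The other 3 listed genes, UGT78D3, the repressor TRY and the seed-coat gene BAN, had all 4 signals under the 40th percentile of their arrays, so no fold is given for them.

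Set side by side, the 5 brighter pathway genes had log2 fold changes from -1.07 to -0.41 with a median of -0.63, and the late members from -2.31 to -1.14. The SE range of CHIL (-1.07 ± 0.21) overlaps those of AT5MAT (-1.14 ± 0.26) and AT4G14090 (-1.36 ± 0.22). That of UGT78D2 overlaps the range of AT5MAT. UGT78D2 (-0.88 ± 0.21) also acts on anthocyanidins, a late step, but is not a listed member and is counted with the other genes. Whether late and other genes differ was not tested, because the late members were listed from this contrast. UF3GT and AT4G14090 belong to the large family of UDP-sugar transferases. Of 47 other genes whose symbols begin with UGT, 19 of them above the 40th percentile of mean log2 signal, 1 fell in limma (UGT78D2) and none rose, shares near the backgrounds of 1.21% and 1.16%. Before adjustment, at p under 0.05, 2 were lower and 3 higher. The median over the 47 was -0.08 on the log2 scale. With all arrays at 1 trimmed mean 3 fell and 1 rose, against backgrounds of 2.51% and 2.66%.

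**Figure D4:**
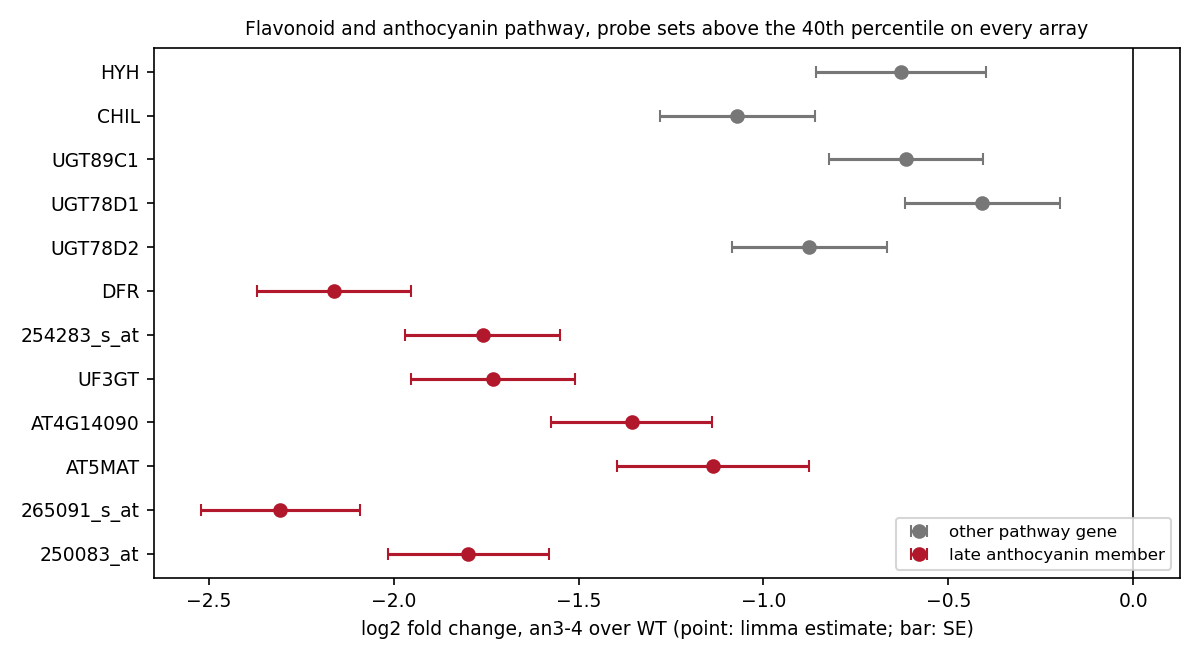
Log2 fold change of an3-4 over wild type (limma estimate, bars show SE, n = 2 arrays each) for the 5 other pathway genes above the 40th percentile on every array (grey) and the 7 late anthocyanin members (red). The grey points lie between -1.07 and -0.41 and the red points between -2.31 and -1.14. UGT78D2, among the grey points, also acts on anthocyanidins.

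The members lie apart on the genome. Of those with an annotated locus, DFR and UF3GT are on chromosome 5, AT4G14090 on 4, AT5MAT on 3, and AT1G03495 and AT1G03940 on 1. Neighbours were the 5 nearest genes on each side of these 6 loci that had a probe set listing them alone. Genes without such a probe set were passed over. Of the 60 neighbours, 29 were above the 40th percentile of mean log2 signal. In limma 1 of the 60 was lower and 1 higher, shares near the backgrounds of 1.21% and 1.16%, and 4 had an unadjusted p under 0.05. The lower one was 2A6, near AT1G03495, at -0.83 ± 0.23 on the log2 scale (adjusted p = 0.0176 in limma), a call lost when any 1 array was left out (-0.91 to -0.75). The higher one was AT4G14020, near AT4G14090, with 1.52 ± 0.38 (limma adjusted p = 0.00546). Both wild-type signals of AT4G14020 lay under the 40th percentile, which leaves a rise of at least 0.96. Its call held without wild-type replicate 2 (1.80) and was lost without any other array (1.23 to 1.60). All 10 neighbours of AT5MAT were dimmer than the 40th percentile, so its surroundings were hardly measured.

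The named genes with a profile nearest to DFR were found by the root mean square distance of log2 signals from their wild-type means over the 4 arrays at 1 trimmed mean. The 5 nearest were AT4G02540 (0.117), AT4G02850 (0.122), AT3G19520 (0.133), AT1G23960 (0.167) and AT1G52100 (0.170). Their log2 fold changes were -2.04, -2.32, -2.03, -2.27 and -2.08. AT1G52100, for example, had signals of 184 and 248 in an3-4, against 771 and 1055 in wild type. Among the members only 265091_s_at (0.123) was as close to DFR as these, and AT5MAT was farthest at 0.739. With 2 genotypes, likeness in this measure is little more than a log2 fold change of similar size.

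Markers were sparsely named. For leaf tissue, signals of the light-harvesting gene LHCB4.2 were 2503 and 2427 in an3-4, against 3182 and 3269 in wild type (log2 fold change -0.39 ± 0.26). The photosystem gene PSAE-1 had 4574 and 4807 in an3-4, against 3841 and 4366 in wild type (0.20 ± 0.28). Neither gene overlapped between genotypes. As for LHCB4.2, both an3-4 signals lay below both wild-type signals in 13.9% of all probe sets as deposited. The share in the direction of PSAE-1 was not counted. The leaf polarity genes YAB3, YAB5 and PHV were above the 40th percentile on all arrays and overlapped between genotypes, with log2 fold changes of -0.06, 0.11 and 0.12. The meristem gene CLV3, the trichome gene TRY and the seed-coat gene BAN were under the 40th percentile on all 4 arrays, and epidermis and root markers were not analysed here. None of these 8 markers was called in limma, and 1 of them, CLV3, had an unadjusted p under 0.05. As a measure of RNA integrity, log2 ratios of 3′ to 5′ control probe sets were compared. The 6 pairs cover only actin, GAPDH and ubiquitin, so they are not independent. In both genotypes the ratios varied widely by pair. They were -0.03 to 0.10 over the 4 arrays for 1 GAPDH pair and 2.82 to 3.29 for 1 actin pair. For 3 of 6 pairs both mutant values exceeded both wild-type values, with mean differences of 0.23 and 0.12 (ubiquitin) and 0.14 (actin). The other pairs overlapped between genotypes, with mean differences of 0.19 (actin) and of 0.16 and -0.02 (GAPDH). The part of these ratios in the member differences was not tested.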

How the data were processed

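The values are signal intensities on a linear scale, deposited by the authors as 1 value per probe set and made with MAS5 per the submitters' processing notes. The version of MAS5 and its scaling target are not given in the sources used here. In all, 64 control probe sets were left out of the tests. Log2 signals, with no offset and no filter, were fitted in limma 3.58.1 under R 4.3.3 (lmFit, eBayes with trend, genotype as the only term) over 22746 probe sets with calls at 0.05 after Benjamini-Hochberg adjustment. limma estimated infinite prior degrees of freedom, so each SE came from the intensity trend. The fit was tested on simulated data in which brighter probe sets were changed by 1 or 2 on the log2 scale. It recovered 77.8% of the changes of 1 and 100% of the changes of 2, with 6 false calls among 184. The simulated noise was independent between arrays, without the scale shared by same-numbered arrays. Its SD depended on mean signal alone, as the fit takes it to, which favours recovery. These shares may therefore not hold for the data. Array data carry no counting depth, and 2 arrays per genotype limit the precision. No detection calls were used, so the 40th percentile of an array served as the limit for dim signals.

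Names came from the platform annotation, where 13513 probe sets list 1 gene, and 13436 of those genes were found in RefSeq (TAIR10.1), which served for names and gene order only. A listed gene was represented by its brightest probe set. The members and lists were chosen with earlier results of these data known. Named genes are all members, the called genes of each pathway list or else its 2 genes with the smallest p, and the 5 nearest to DFR. Outside that rule stand UGT89C1, UGT78D1 and UGT78D3, given so that each pathway gene with a named probe set is accounted for, and the markers. The 2 neighbouring genes with a call and the family of genes with UGT symbols were added after values were seen. Alternatives covered array scale, filters, offset, eBayes settings, the replicate number as a block, the threshold, the probe set per gene and leaving out each array. A motif search in promoters was not made, because no sequence was used here.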

Additional observations from a re-analysis of the deposited data

How the results depend on the processing

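Every member kept its direction in all settings run. Without 1 array or with the offset this had to be so, because the signals of the genotypes did not overlap for any member. Of 105 member values under alternatives 100 moved by less than the spread between replicates and 5 moved more, all under the offset of 32, where log2 fold changes became -2.00 for DFR, -1.50 for UF3GT, -0.88 for AT5MAT, -2.05 for 265091_s_at and -1.58 for 250083_at. Many of the 100 could not move, so their number is no measure of robustness. Filters, eBayes settings, the replicate block and 1 trimmed mean leave the log2 fold change of a member as it was. Raising dim signals to a limit also changed none, as no member lay below it. Only quantile normalization, median centring, the offset and leaving out an array could move a member. The members' median log2 fold change lay between -1.89 and -1.70 without 1 array. The counts of all lower and higher probe sets, 276 and 264, became 570 and 604 at 1 trimmed mean, 548 and 533 after quantile normalization, 656 and 476 for arrays centred on their medians (58% lower, against 51.1%), 117 and 103 without the dimmest 60%, 65 and 60 with the offset, and 0 and 0 without the trend. The 2 other pathway genes that fell became 5 with each of the 3 scalings, and 0 with the offset or without the trend (4 and 3 at an unadjusted p under 0.05). Leaving out 1 array gave 60 to 274 lower and 87 to 161 higher probe sets, with 60 lower and 161 higher (27.1% lower) without wild-type replicate 2 and 274 and 87 (75.9% lower) without an3-4 replicate 2. In these fits 0 to 1 pathway genes were lower, CHIL in 2 of them and, without wild-type replicate 2, the dim gene BAN in place of CHIL and UGT78D2, and the genotype left with 1 array is assumed to have the spread of the other. With the replicate block 859 were lower and 967 higher, at either array scale, 5 pathway genes fell, and of the markers LHCB4.2 was called lower (adjusted p = 0.00464 in limma). Deviations of same-numbered arrays correlated at -0.01 over probe sets (0.04 over the brighter ones), and nothing in the labels says that a number marks a shared batch. The causes of these shifts were not tested.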
